A study of Mus musculus with 50 samples.

Results

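D1-type medium spiny neurons (D1-MSNs) of the nucleus accumbens (NAc) were compared between mice that were resilient to chronic social defeat stress and control mice without defeat. The comparison used the immunoprecipitated (IP) libraries labelled D1 Res 1 to 4 and D1 Con 1 to 4, which are 8 of the 50 samples of the series. All 8 libraries came from RT; D1-Cre mice of the C57BL/6 strain aged 8 to 12 weeks, and each held NAc punches pooled from 2 mice. RT (RiboTag) mice carry a ribosomal protein that gains an HA tag where Cre recombinase is active, so that an antibody to HA pulls down ribosomes, with the mRNA on them, from cells in which the D1-Cre transgene is or has been active. D1 Res mice met an aggressive CD1 male daily on up to 10 days and were called resilient from a social interaction test 1 day later, while D1 Con mice lived beside mice of their own strain. Values are CPM, the number of counts on a gene per 1e6 counts on genes after TMM scaling, and depth was 26378222 to 30187149 counts in D1 Con and 22874477 to 29622460 in D1 Res. For context, values of D1 susceptible mice (D1 Sus, same genotype and defeat, n = 5), of RT; D2-Cre mice (D2 Con and D2 Res, n = 5 each) and of D1 inputs, the RNA of the homogenate before precipitation (n = 3 per group), are given where a result turns on them.

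D1-MSNs carry the dopamine D1 receptor, which raises cAMP through the G protein subunit Golf, and they release GABA together with dynorphin and substance P. D2-MSNs carry the D2 receptor, which lowers cAMP, and release GABA together with enkephalin. In rodents, the balance of activity between both classes in the NAc has been linked to how an animal responds to social defeat, and the resilient state has been described as an active adaptation rather than a mere lack of response.

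The label was first checked against defining markers. Drd1, the D1 receptor, lay at 302 to 386 CPM in D1 Con and at 291 to 339 CPM in D1 Res, above 118 to 165 CPM in D2 Con. Pdyn, the precursor of dynorphin, lay at 453 to 566 CPM in D1 Con, 461 to 536 CPM in D1 Res and 76.2 to 123 CPM in D2 Con. D2-MSN markers were lower than in the D2 line and far from absent. Drd2, the D2 receptor, was at 84.9 to 119 CPM in D1 Con and 91.1 to 104 CPM in D1 Res, against 312 to 368 CPM in D2 Con, and Penk, the precursor of enkephalin, was at 1835 to 2725, 1826 to 2191 and 4927 to 6264 CPM in the same order. The libraries thus held an excess of D1-MSN mRNA over the D2 line, together with mRNA of other cells.

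Before the comparison, 4 libraries stood apart from their groups. D1 Con 1 had the most MSN mRNA, with 15161 CPM summed over 16 MSN markers against 12028 to 12209 CPM in the other 3 D1 Con libraries. D1 Res 1 had the most mRNA of cholinergic interneurons, with 54.5 CPM summed over 8 markers against 28.8 to 31.0 CPM in the other 3 D1 Res libraries. D1 Con 3 and D1 Res 3 held the least of the ribosomal RNA precursor Rn45s. Their levels were 4301 and 4918 CPM, against 19675 to 27529 CPM in the other 6 libraries. They also held the least of Lars2, 286 and 274 CPM against 772 to 1651 CPM. These were 1 library of each group, and the part of this difference in the results was not tested. Over log2 CPM of the genes tested, libraries of different groups were as alike as libraries of 1 group (mean r across genes of 0.990 between groups, 0.990 within D1 Con and 0.989 within D1 Res, genes not being independent replicates). For 8 of 8 libraries, the most similar library was one of the other group. By the study's methods and mouse numbers the libraries of a group are pools of separate mice, drawn from several batches of defeat, and the batch of each library is not given in the sources used here.

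Between resilient and control D1-MSNs, few genes were called and most estimates were small. Of 14224 genes tested with edgeR's quasi-likelihood test, 143 were higher in D1 Res (1.01%) and 157 were lower (1.1%) at an unadjusted p under 0.05, 300 in all (2.11%), where 711 would be called if p were uniform over the genes. Without D1 Res 1, 203 genes were called (87 higher), without D1 Res 3, 488, and without D1 Con 3 and D1 Res 3, 466. At an adjusted p under 0.05 (Benjamini-Hochberg), 1 gene was called (0.00703%), Ccs, which fell, and DESeq2 likewise called 1 gene (295 at an unadjusted p). The 4 D1 Res libraries lay wholly above the 4 D1 Con libraries for 103 genes (0.724%) and wholly below them for 141 genes (0.991%). Of the 143 higher genes, 38 were among the genes without overlap, 64 had a mean over 10 CPM and 41 a mean under 1 CPM. Of the 157 lower genes, the numbers were 55, 68 and 36. The precision of these libraries bounds the differences for most genes. The median standard error of a log2 fold change was 0.105, and the 95% interval lay within a 1.5-fold change in either direction for 10873 genes (76.4%). That share was 99.7% of the 2350 genes over 100 CPM, 98.0% of the 6605 genes at 10 to 100 CPM, 59.1% of the 3476 genes at 1 to 10 CPM and 1 gene of the 1793 under 1 CPM. An estimate past 1.5-fold occurred in 429 genes, 382 of them under 1 CPM and none over 100 CPM.

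**Figure D1:**
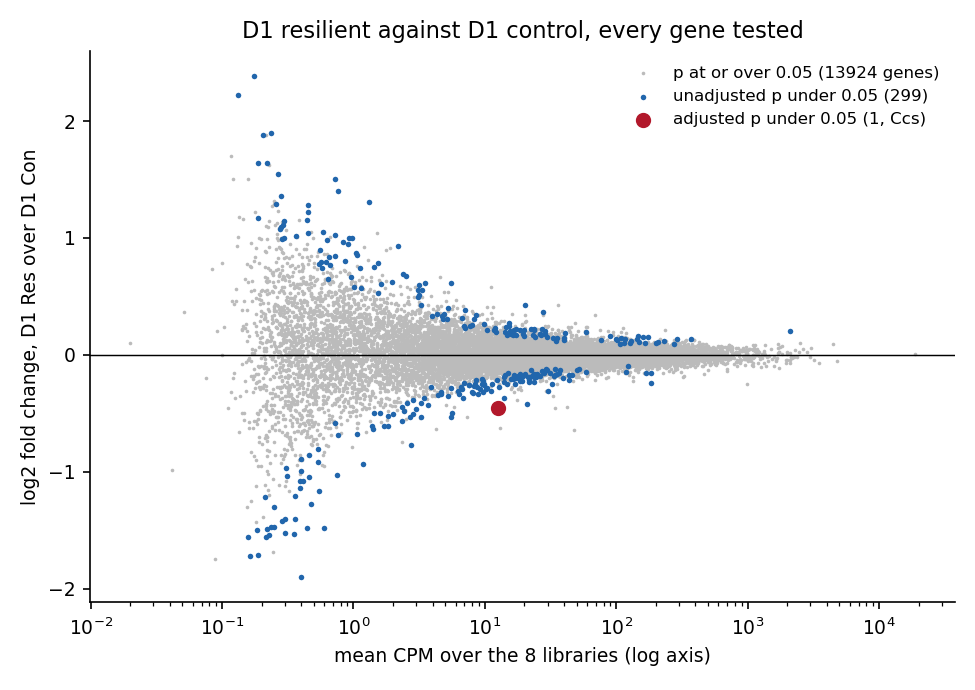
Each point is one of the 14224 genes, with its mean CPM over the 8 libraries on a logarithmic horizontal axis and its log2 fold change of D1 Res over D1 Con on the vertical axis. Points past an unadjusted p under 0.05 (299 besides Ccs) are blue, and Ccs, the gene past an adjusted p under 0.05, is red. The spread of estimates narrows as CPM rises.

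Ccs encodes the copper chaperone that hands copper to superoxide dismutase 1, an enzyme that clears superoxide radicals in the cytosol. It lies on chromosome 19 from 4825366 to 4839332 on the minus strand (GRCm38, GENCODE M21). Its levels were 15.1, 15.2, 13.3 and 14.5 CPM in D1 Con 1 to 4 and 10.6, 10.9, 11 and 9.95 CPM in D1 Res 1 to 4. Every resilient library was below every control library, and the highest D1 Res value lay under the lowest D1 Con value by more than the range of the D1 Res libraries. With n = 4 libraries in each group, D1 Con averaged 14.5 CPM with an SD of 0.866 and D1 Res 10.6 CPM with an SD of 0.480. The log2 fold change was -0.45 ± 0.08 (SE, 95% interval -0.61 to -0.30), a change of -26.8%, at adjusted p = 0.0263 in edgeR. The counts behind these values were 386 to 443 reads per library in D1 Con and 248 to 332 in D1 Res. Ccs was past the unadjusted threshold in each of 18 alternative settings, with log2 fold changes of -0.51 to -0.42, but past the adjusted threshold in 4 of them. Leaving out any 1 of the 8 libraries other than D1 Con 3 ended the adjusted call, with adjusted p-values up to 0.30, and without D1 Con 1 and D1 Res 1 it was at adjusted p = 0.705.

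D1 Con held the highest Ccs levels of the 6 IP groups of the count table used here. A further IP group, labelled Sirt1-KO, is in another table and was not analysed here. D1 Sus libraries held 11.4 to 13.1 CPM, D2 Con libraries 11.2 to 13.3 CPM, D2 Res libraries 11 to 12.1 CPM and D2 Sus libraries 10.4 to 12.8 CPM. All 24 other IP libraries of the same count table lay below the lowest D1 Con library, the nearest by a small step (13.27 against 13.31 CPM), and 2 libraries outside D1 Res lay at or below the highest D1 Res library. Against the same D1 Con libraries, which both comparisons share, D1 Sus gave a log2 fold change of -0.29. That change was also past the unadjusted threshold, at adjusted p = 0.846 (edgeR). D1 Sus was above D1 Res by 0.16 on the log2 scale, past the unadjusted threshold of 0.05 but at adjusted p = 0.999 (edgeR). In D2-MSNs the change from Con to Res was -0.074, and the D1 change differed from it by -0.38 in the interaction test of edgeR, past the unadjusted threshold but at adjusted p = 1.00. That difference rests on the same D1 libraries in which Ccs was singled out. In D1 inputs, the levels were 10.4, 10.5 and 10.9 CPM in Con and 9.57, 9.8 and 9.72 CPM in Res, again without overlap, with a log2 fold change of -0.13 that did not pass the test.

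**Figure D2:**
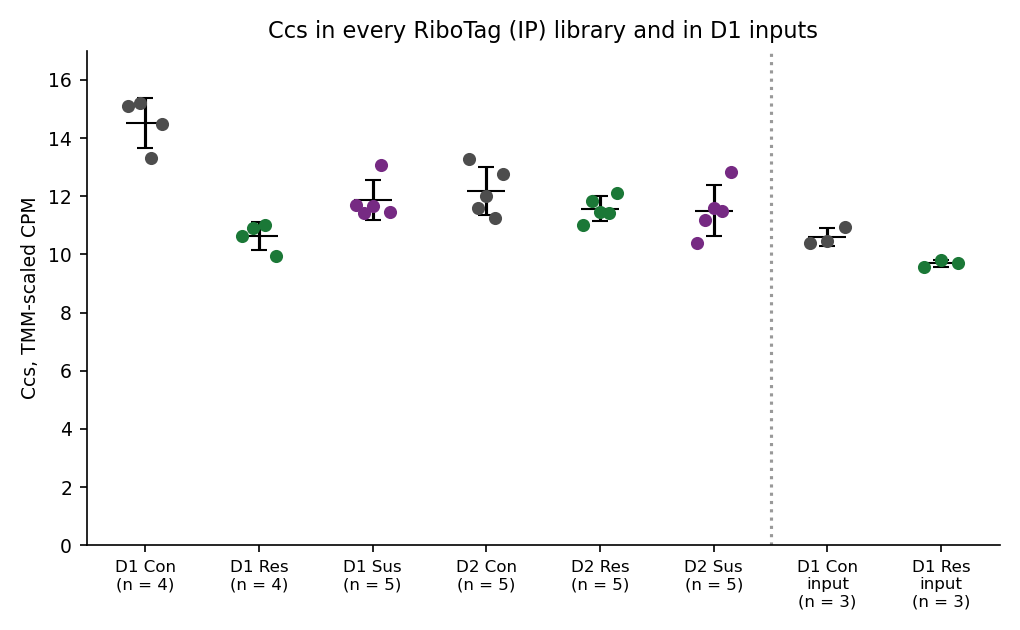
Each point is 1 library, with the TMM-scaled CPM of Ccs on the vertical axis, a horizontal line for the mean and whiskers for the SD of each group, IP groups on the left of the dotted line and D1 inputs on its right (scaled separately). The 4 D1 Con libraries lie at 13.3 to 15.2 CPM, above the other 24 IP libraries, and the 4 D1 Res libraries at 9.95 to 11 CPM.

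Other genes of copper handling and superoxide removal, chosen after the values of Ccs were seen, did not pass the test. Sod1, the enzyme that Ccs serves, held 183, 170.0, 160.2 and 179 CPM in D1 Con and 153, 152, 175 and 166 CPM in D1 Res, overlapping ranges, with a log2 fold change of -0.098 ± 0.07 (edgeR). The estimates were -0.0057 for mitochondrial Sod2, -0.058 for the chaperone Atox1, -0.038 for the copper pump Atp7a, -0.038 for the copper importer Slc31a1, 0.21 for its relative Slc31a2, 0.64 for extracellular Sod3 and 0.53 for the copper pump Atp7b, both under 1 CPM on average, and -0.092 and -0.14 for Cox17 and Sco1, which carry copper to cytochrome oxidase. Of the metallothioneins, small proteins that bind zinc and copper, Mt1 had the lowest p, with 18.8, 16, 14.4 and 16.5 CPM in D1 Con against 13.3, 15.1, 14.3 and 13.3 CPM in D1 Res, ranges that overlapped, and a log2 fold change of -0.23 ± 0.11 (edgeR). Mt3, the brain form, had an estimate of -0.16 and Mt2 one of 0.05. The gene that starts 33 bases from Ccs on the opposite strand, Ccdc87, was at 3.22 to 3.86 CPM in D1 Con and 2.95 to 3.6 CPM in D1 Res, with a log2 fold change of -0.082 ± 0.19 (edgeR).

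Among genes with a mean of at least 1 CPM and no overlap between the groups, the 12 higher in D1 Res with the smallest p changed by 0.12 to 0.57 on the log2 scale, all past the unadjusted threshold by that choice and at adjusted p = 1.00 each (edgeR). The first was Aco1, the cytosolic aconitase that turns into iron regulatory protein 1 when it loses its iron-sulfur cluster. Aco1 held 21.7, 22.9, 22.1 and 20.5 CPM in D1 Con and 26.4, 25.9, 23.8 and 24.8 CPM in D1 Res, so that the groups were apart by a narrow gap, with a log2 fold change of 0.21 ± 0.06. In D2-MSNs the estimate for Aco1 went the other way (-0.15), and the difference between the lines was 0.36, both past the unadjusted threshold of edgeR and at adjusted p = 1.00. Ppp1r21, which acts on endosomes, lay at 68.7 to 77.2 CPM in D1 Con and 79.1 to 81.7 CPM in D1 Res and changed by 0.12. Wdr4, the partner of the enzyme that methylates guanosine in tRNA, rose by 0.22, and Tor1aip1, a protein of the inner nuclear membrane that activates torsin ATPases, by 0.22, although its reads can overlap those of Tor1aip2 at the same place.

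The larger increases were in genes of low level. Zbtb7b, a zinc-finger repressor best known from T cells, lay at 2.35 to 3.08 CPM in D1 Con and 3.35 to 4.53 CPM in D1 Res (0.56 ± 0.21). Gal3st1, the sulfotransferase that makes the myelin lipid sulfatide, lay at 1.99 to 3.02 CPM in D1 Con and 3.35 to 3.87 CPM in D1 Res (0.51 ± 0.20), and Kank2, an adaptor between integrin adhesions and microtubules, at 2.14 to 2.85 and 3.18 to 4.03 CPM (0.55 ± 0.22). Kdm8, a JmjC-domain protein, changed by 0.40, the kinase-like gene Cdkl3 by 0.38 and Prr18 by 0.34. Ttc12, the neighbour of Drd2 that was also on the list of D2-MSN markers, lay at 0.675 to 1.07 CPM in D1 Con and 1.14 to 1.78 CPM in D1 Res (0.57 ± 0.22), while the other members of that list, Drd2 among them, were not called. Each of these genes had a higher mean in D1 Con inputs, which were scaled separately, than in D1 Con IPs. The input and IP means were 60.0 and 7.54 CPM for Prr18, 13.5 and 6.12 CPM for Cdkl3 and 11.6 and 2.69 CPM for Zbtb7b. They were 9.86 and 2.59 CPM for Gal3st1, 8.63 and 2.5 CPM for Kank2, 6.02 and 4.56 CPM for Kdm8 and 2.87 and 0.907 CPM for Ttc12. The part of mRNA of other cells in these changes was not tested. After ± stands the standard error of the log2 fold change.

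The 12 genes lower in D1 Res by the same rule, Ccs included, changed by -0.77 to -0.18. Tmem86a, which encodes an enzyme that cleaves lysoplasmalogens, held 8.21, 9.57, 8.98 and 9.19 CPM in D1 Con and 6.76, 6.65, 7.89 and 7.38 CPM in D1 Res (-0.32 ± 0.09). The groups lay side by side without a wide gap. Genes that act on RNA and on its synthesis were among the 12. The splicing regulator Hnrnpa1 held 3.0, 3.09, 2.8 and 4.99 CPM in D1 Con and 1.74, 2.16, 1.99 and 2.21 CPM in D1 Res (-0.77 ± 0.22), with D1 Con 4 well above the rest. It has many processed copies in the genome, so its count is uncertain. Snrnp48, a protein of the minor spliceosome, lay at 10.8 to 12.1 CPM in D1 Con and 8.98 to 9.75 CPM in D1 Res (-0.28 ± 0.10), and Ppih, a cyclophilin of the spliceosome, at 8.86 to 11 and 7.35 to 8.74 CPM (-0.29 ± 0.10). Gtf2b, the general transcription factor TFIIB, lay at 22.6 to 25.7 CPM in D1 Con and 19.7 to 22 CPM in D1 Res (-0.18 ± 0.06).

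Genes of membrane traffic and protein turnover were also in this group. Vps36, a part of the ESCRT-II complex that sorts cargo on endosomes, held 14.3, 14.1, 13.5 and 14.6 CPM in D1 Con and 9.39, 11.3, 13.3 and 12.6 CPM in D1 Res, of which D1 Res 3 came close to the controls (-0.28 ± 0.10). Yipf2, a Golgi membrane protein whose locus overlaps Carm1 and Timm29, lay at 14.7 to 15.9 CPM in D1 Con and 12.2 to 13.4 CPM in D1 Res, Ubxn8, a membrane adaptor of the ATPase p97, at 17 to 19.7 and 14.8 to 16.2 CPM, and Cdk5rap3, a component of the UFM1 ligase, at 22.4 to 25.4 and 17.6 to 21.8 CPM. The zinc-finger gene Zfp119a fell by 0.53 on the log2 scale. No theme is drawn from these names, since the genes were chosen by p and not by a list. In edgeR, D1 Res and D1 Sus differed at an unadjusted p under 0.05 in 5 of the 24 genes (Ccs, Tmem86a, Hnrnpa1, Gtf2b and Vps36), and the D1 and D2 changes differed in 13 of the 24, both among genes picked for their D1 Res change. Over all genes these edgeR tests called 601 (4.23%) and 335 (2.36%) at an unadjusted p under 0.05 and 0 each at an adjusted p under 0.05, against 584 and 333, and 0 each, in DESeq2. Against the same D1 Con libraries, which both comparisons share, the values of D1 Sus and of D1 Res were 0.30 and 0.38 for Cdkl3, 0.23 and 0.22 for Tor1aip1, 0.32 and 0.40 for Kdm8, 0.60 and 0.57 for Ttc12, -0.14 and -0.23 for Yipf2 and -0.20 and -0.25 for Ubxn8. They were -0.082 and -0.32 for Tmem86a, -0.12 and -0.77 for Hnrnpa1, -0.035 and -0.18 for Gtf2b and -0.015 and -0.28 for Vps36. These genes were picked after their D1 Sus values were seen. The first set was picked for being past the unadjusted threshold in D1 Sus too, as Ccs was. The second set was picked for its difference between D1 Res and D1 Sus. The same 24 genes were called in D2 Res against D2 Con 3 times (Aco1, Tmem86a and Cdk5rap3), where 3.02% of all genes were called, and in D1 inputs 0 times, where edgeR called 525 genes (3.49%) at an unadjusted p and 0 at an adjusted p, and DESeq2 466 and 0.

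**Figure D3:**
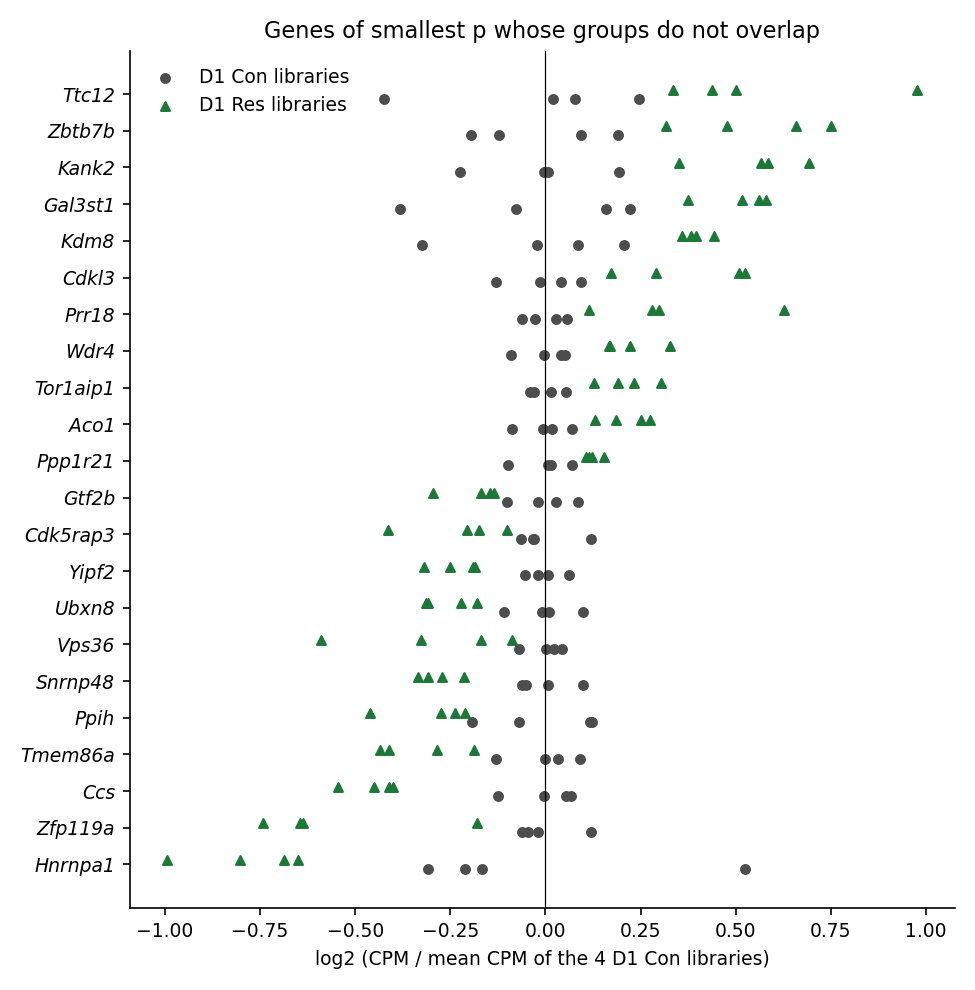
For 22 of the 24 genes, points give log2 of the CPM of a library over the mean CPM of the 4 D1 Con libraries, as grey circles for D1 Con and green triangles for D1 Res. The groups do not overlap in any row, which is how the genes were chosen, and most triangles lie within 0.6 log2 units of the control mean.

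The promoter sequences of the first gene that rose and of the cholinergic pair treated next are shown, since Aco1 had the smallest p among genes that rose and the pair shares 1 locus. They are the 250 bases before the start of the RefSeq gene (GRCm38.p6), 5′ to 3′ on the gene's strand, with capitals for the GC box (GGGCGG or its reverse complement CCGCCC) and the CCAAT box (CCAAT or its reverse complement ATTGG), which share no base in these sequences.
Aco1, chr4:40143015-40143264, plus strand: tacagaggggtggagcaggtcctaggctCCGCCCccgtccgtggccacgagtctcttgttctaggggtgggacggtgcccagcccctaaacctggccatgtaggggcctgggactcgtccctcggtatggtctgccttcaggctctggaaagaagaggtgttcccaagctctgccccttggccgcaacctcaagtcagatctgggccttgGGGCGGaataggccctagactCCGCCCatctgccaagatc
Slc18a3, chr14:32464851-32465100, minus strand: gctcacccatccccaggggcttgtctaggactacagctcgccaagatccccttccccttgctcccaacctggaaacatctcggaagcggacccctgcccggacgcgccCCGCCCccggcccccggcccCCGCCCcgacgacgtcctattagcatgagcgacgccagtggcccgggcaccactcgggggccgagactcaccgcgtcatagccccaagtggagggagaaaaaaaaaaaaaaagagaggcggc
Chat, chr14:32465910-32466159, minus strand: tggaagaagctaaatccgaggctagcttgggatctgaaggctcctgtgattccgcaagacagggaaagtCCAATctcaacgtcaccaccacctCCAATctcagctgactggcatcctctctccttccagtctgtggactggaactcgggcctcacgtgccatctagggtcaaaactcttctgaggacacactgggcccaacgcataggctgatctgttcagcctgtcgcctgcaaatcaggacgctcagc
Aco1 holds 3 GC boxes and no CCAAT box, Slc18a3 2 GC boxes, and Chat 2 CCAAT boxes. Of 32851 promoter windows of this length, 32.7% hold a GC box, 33.8% a CCAAT box and 1.55% the cAMP response element TGACGTCA. Of 38 genes named by the rules for the comparison, 29 had an entry, and 19, 13 and 0 of these held the respective motif in at least 1 window. These counts are per gene over all its windows, while the percentages are per single window. The counts and percentages are thus unlike measures, and no enrichment was tested. Genes without an entry included Ccs, Cdkl3, Ubxn8, Rpl36, Hspa8, Shisa6 and Shisa9.

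Cholinergic interneurons are rare cells of the NAc that release acetylcholine and also carry dopamine receptors. In D1 Res, 2 of their 8 markers were called, both higher, where 2.11% of all genes were called. Both come from a single locus in which Slc18a3, the vesicular acetylcholine transporter, lies within Chat on the same strand. Reads of both genes cannot be separated with certainty, and Chat is the enzyme that makes acetylcholine. Chat held 1.64, 1.73, 2.12 and 1.69 CPM in D1 Con and 6.42, 1.5, 2.02 and 1.89 CPM in D1 Res (log2 fold change 0.70 ± 0.33). Slc18a3 held 0.341, 0.295, 0.293 and 0.713 CPM in D1 Con and 2.8, 0.352, 0.763 and 0.499 CPM in D1 Res (1.41 ± 0.54). The groups overlapped for both genes, and D1 Res 1 was far above the rest. Without D1 Res 1, the log2 fold change of Chat was 0.02, and over the 18 alternative settings Chat was called in 9 and Slc18a3 in 15. The log2 fold change of Slc18a3 ran from 0.36 to 1.79 when libraries were left out, and it was not called without D1 Res 1. The D2 line held more of this mRNA, with Chat at 16.2 to 28.3 CPM in D2 Con. In D1 Res 1, Drd2 (91.1 CPM) and Penk (1826 CPM) were not above the other D1 Res libraries. Its sum of MSN markers was also the lowest of the 8 libraries (11679 CPM). Neither the source of the cholinergic mRNA in this library nor its part in other genes was tested.

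**Figure D4:**
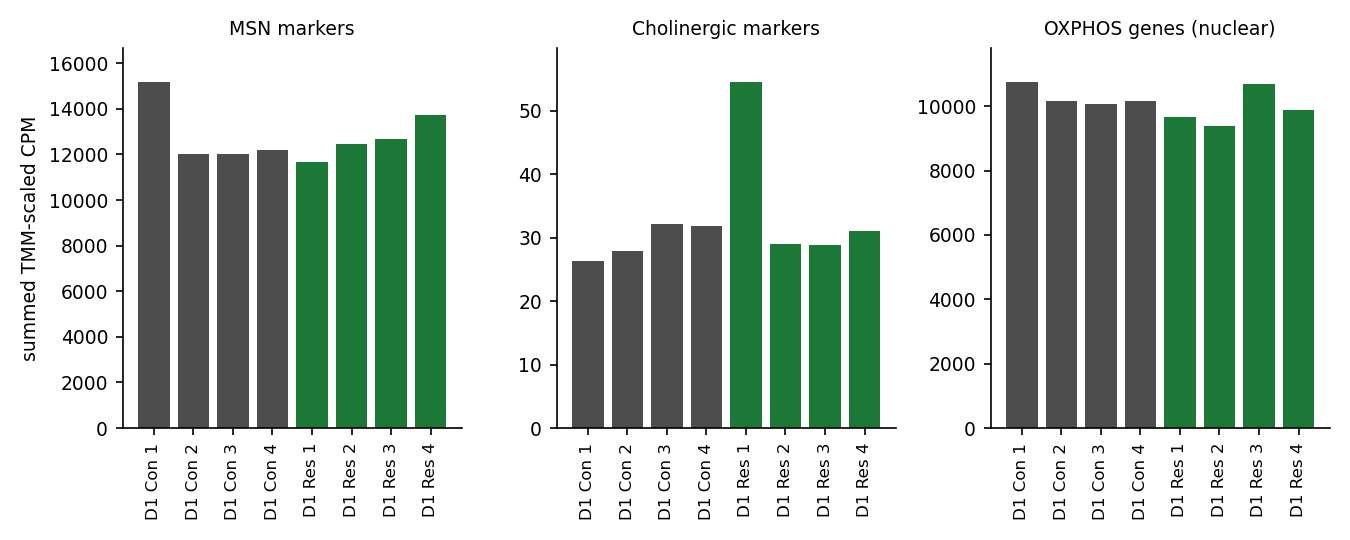
Bars, which start at 0, give for each library the TMM-scaled CPM summed over 16 MSN markers, 8 cholinergic interneuron markers and the nuclear genes of oxidative phosphorylation (OXPHOS), with D1 Con in grey and D1 Res in green. D1 Con 1 stands out by MSN markers (15161 CPM), D1 Res 1 by cholinergic markers (54.5 CPM), and OXPHOS sums of both groups overlap (10084 to 10743 CPM in D1 Con, 9387 to 10691 CPM in D1 Res).

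Few cell type markers were called. Of 8 D1-MSN, 7 D2-MSN and 16 MSN markers tested, the call was Ttc12 alone, where 2.11% of all genes were called. The estimates were -0.07 for Drd1, -0.0013 for Pdyn, -0.18 for Tac1, the precursor of substance P, -0.057 for Chrm4, a muscarinic receptor, 0.0018 for Drd2, -0.078 for Adora2a, an adenosine receptor, -0.073 for Penk, -0.011 for Gpr6, an orphan receptor of D2-MSNs, and -0.051 for Ppp1r1b, which encodes DARPP-32. All of them but Tac1 changed sign when 1 library was left out, most often D1 Con 1. None of 10 astrocyte, 10 oligodendrocyte, 5 oligodendrocyte precursor, 10 microglia, 10 endothelial and mural, 10 GABAergic interneuron, 10 cortical excitatory and 6 choroid plexus and ependymal markers tested was called. Summed levels overlapped in each case, at 383 to 523 CPM in D1 Con and 439 to 533 CPM in D1 Res for astrocytes, 531 to 670 and 512 to 761 CPM for oligodendrocytes, 20.5 to 34.6 and 20.6 to 40.8 CPM for their precursors, 23.5 to 27.8 and 22.0 to 29.9 CPM for microglia, 12.9 to 18 and 15.5 to 19.4 CPM for endothelial and mural cells, 41.3 to 50.2 and 46.4 to 55.0 CPM for choroid plexus and ependyma, and 430 to 1126 and 509 to 916 CPM for cortical excitatory neurons. In glial lists, 8 of 10 astrocyte, 10 of 10 oligodendrocyte and 5 of 5 precursor markers had estimates above 0, against 49.8% of all genes tested. The medians were 0.21, 0.073 and 0.34. In D1 Sus against the same D1 Con these medians were 0.30, 0.16 and 0.17. In D2 Res against D2 Con they were 0.086, 0.077 and 0.21, and in D1 inputs 0.018, -0.072 and 0.028. Microglia markers were more mixed, with 6 of 10 above 0, estimates of -0.32 to 0.53 and a median of 0.26. The D1 Res libraries were not alike. The oligodendrocyte markers of D1 Res 1 and D1 Res 4 lay 0.33 and 0.35 above the control mean in the median on the log2 scale, while D1 Res 2 and D1 Res 3 lay at -0.15 and -0.25. Without D1 Con 1 and D1 Res 1 the medians of astrocyte, oligodendrocyte and precursor markers were -0.033, -0.018 and -0.041. Bulk IP libraries cannot tell apart fewer cells of a type and less mRNA per cell.

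Of 4 genes on the Y chromosome, each had a lower estimate in D1 Res and 1 was called. The list of check genes of sex held 5 genes in the count table, and only these 4 passed the filter on low counts. Of all genes, 50.2% had a lower estimate and 2.11% were called. Eif2s3y, which encodes a subunit of a translation initiation factor, held 27.2, 25.7, 21.8 and 22.2 CPM in D1 Con and 18.7, 9.46, 23.4 and 20.5 CPM in D1 Res, of which D1 Res 2 was far below the rest (log2 fold change -0.42 ± 0.17). Kdm5d, a histone demethylase, was also lowest in D1 Res 2 (19.9, 7.79, 15.1 and 14.3 CPM against 16.7 to 18.3 CPM in D1 Con, -0.29 ± 0.15). Ddx3y and Uty in D1 Res 2 lay within the range of D1 Con. Ddx3y held 63.6 CPM there against 51.6 to 73.4 CPM in D1 Con, and Uty 12.6 against 9.13 to 12.9 CPM. In D1 inputs, the log2 fold changes were -0.24 for Eif2s3y, -0.29 for Kdm5d, -0.32 for Ddx3y and -0.43 for Uty, all 4 past the unadjusted threshold. The part of the Y chromosome difference in other results was not tested.

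Gene lists gave few calls. The 41 lists covered functions of MSNs as well as cell type markers, check genes of sex and housekeeping genes. Over these lists, with 1012 distinct genes tested, 13 genes were called at an unadjusted p (1.28%, against 2.11% of all genes) and 31 lists had no call. Dopamine and cAMP signalling had 0 of 40 genes called, AMPA and kainate receptors 0 of 9, NMDA receptors 0 of 6, metabotropic glutamate receptors 0 of 7, AMPA receptor auxiliary subunits 0 of 18, GABA receptors 0 of 15, serotonin receptors 0 of 11, opioid and endocannabinoid genes 0 of 10, potassium channels 0 of 72, sodium channels 0 of 12 and calcium channels 0 of 17. The 95% interval lay within 1.5-fold for 38 of the 40 dopamine and cAMP genes and 17 of the 18 auxiliary subunits. It did so for 13 of the 15 GABA receptors, 54 of the 72 potassium channels and 2 of the 6 NMDA receptor subunits. All 6 NMDA receptor subunits had estimates above 0 (median 0.093), against 49.8% of all genes. All 6 were also above 0 in D1 Sus against the same D1 Con (median 0.15) and in D1 inputs (median 0.082). In D2 Res against D2 Con, 3 of the 6 were lower (median -0.025). Immediate early genes, which rise within minutes of neuronal activity, had 0 of 25 called with a median log2 fold change of 0.022 and estimates of -0.45 to 0.24. Genes of the glucocorticoid and CRH stress response had 0 of 24 called (median 0.018), neuropeptide precursors 0 of 31 (0.0089), neurotrophins and their receptors 0 of 8 (0.051), the Wnt and beta-catenin pathway 0 of 40 (0.012), synaptic vesicle genes 0 of 37 (0.015) and clock genes 0 of 21 (-0.034).

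The single calls in lists of synaptic genes were of well expressed genes that changed little. They were 1 of 4 HCN channels, 1 of 23 postsynaptic scaffolds and 1 of 36 synaptic adhesion molecules, where 2.11% of all genes were called. Hcn2, a channel opened by hyperpolarization, held 112, 126, 122 and 138 CPM in D1 Con and 147, 125, 137 and 134 CPM in D1 Res (0.12 ± 0.06). Dlgap3, the scaffold SAPAP3 of striatal excitatory synapses, held 366, 363, 336 and 346 CPM and 406, 395, 348 and 404 CPM (0.14 ± 0.06). Ptprf, a receptor phosphatase that organises synapses, held 140.4, 136, 139 and 142 CPM and 167, 159, 137 and 160.1 CPM (0.16 ± 0.06). In these 3 genes the groups overlapped, and D1 Res 1 was the highest of the 8 libraries. Hcn2 was called in 8, Dlgap3 in 12 and Ptprf in 17 of the 18 alternative settings. D1 Sus against D1 Res gave -0.15 for Hcn2 and -0.18 for Dlgap3, both past the unadjusted threshold and at adjusted p = 0.999 in edgeR. Of 98 chromatin modifiers, Tet1, which oxidises methylated cytosine, was called, at 10.9 to 14 CPM in D1 Con and 9.22 to 11.3 CPM in D1 Res (-0.25 ± 0.11). The axon guidance receptor Ephb4 was called from 2 to 9 counts per library in D1 Con and 9 to 10 in D1 Res, too few to read further. Postsynaptic scaffolds had higher estimates for 20 of 23 genes (median 0.038) and axon guidance genes for 48 of 66 (median 0.046), while 49.8% of all genes did. Their median exonic lengths were 8776 and 7041 bases, against 4529 for all genes. In the length classes that hold these medians, 41.3% and 46.9% of genes had lower estimates, against 50.2% of all genes. The part of length in these lists was not tested. Without D1 Con 1 and D1 Res 1, the axon guidance median was -0.01. In the median of that list D1 Con 1 lay at -0.094 and D1 Res 1 at 0.13 against the control mean, and the other D1 Res libraries at -0.0055 to 0.027.

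Among 76 heat shock and chaperone genes, 2 were called, a share near the 2.11% of all genes. Hspa8, the constitutive HSP70 of neurons that also strips clathrin from vesicles, is one of the most abundant mRNAs here, at 1976, 1994, 2087 and 1743 CPM in D1 Con and 2490, 2386, 2284 and 1823 CPM in D1 Res (log2 fold change 0.20 ± 0.08). The groups overlapped through D1 Res 4, while the other 3 D1 Res libraries lay above all of D1 Con. In D2-MSNs the estimate was -0.086, and the difference between the lines was 0.29, past the unadjusted threshold and at adjusted p = 1.00 in edgeR. Hspb1, a small heat shock protein, had 0, 1, 4 and 0 counts in D1 Con and 6, 4, 4 and 9 in D1 Res, a call made near the floor of detection. Hspa8 has near-identical copies in the genome, which makes its count uncertain. The median of the list was 0.012.

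Lists of housekeeping genes leaned downward with few single calls. Nuclear genes of OXPHOS, which build the respiratory chain in mitochondria, had lower estimates in 72 of 77 genes with a median log2 fold change of -0.085 and 0 called, and the 95% interval lay within 1.5-fold for 74 of them. Proteins of the cytosolic ribosome had lower estimates in 66 of 76 genes (median -0.059, 2 called), and proteasome subunits in 31 of 35 (median -0.039, 0 called). Of all genes, 50.2% had a lower estimate and 2.11% were called. In D2-MSNs, which share no library with this comparison, the medians from Con to Res were -0.096, -0.047 and -0.075, with lower estimates in 76, 64 and 33 of the same genes. In D1 Sus against the same D1 Con the medians were -0.09, -0.092 and -0.047. In D1 inputs they were 0.039, -0.0068 and 0.024. Summed over the list, OXPHOS levels of the groups overlapped, since D1 Res 3 (10691 CPM) lay with the highest controls. Median log2 levels of a list against the D1 Con mean differed between libraries. For OXPHOS they were -0.18, -0.18, 0.051 and -0.057 in D1 Res 1 to 4 and -0.082 to 0.051 in D1 Con. For ribosomal proteins they were -0.12, -0.12, 0.012 and -0.028, against -0.10 to 0.064 in D1 Con. For the proteasome they were -0.068, -0.068, 0.062 and -0.083, against -0.061 to 0.067. Genes of a list are not independent replicates. Over 18 alternative settings the OXPHOS median ran from -0.16 to -0.043 that of the ribosomal proteins from -0.11 to -0.029 and that of the proteasome from -0.065 to -0.0008, the last without D1 Con 1 and D1 Res 1. With genes split into 5 equal classes of exonic length, the share with a lower estimate fell from 59.4% in the shortest class (median -0.028) to 41.3% in the longest (median 0.017). The median length was 1737 bases for OXPHOS genes, 1776 for ribosomal proteins and 2808 for proteasome subunits against 4529 for all genes. In the class of 2549 to 3835 bases, which holds the proteasome median, 53.2% of genes had a lower estimate. The part of transcript length in these medians was not tested.

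**Figure D5:**
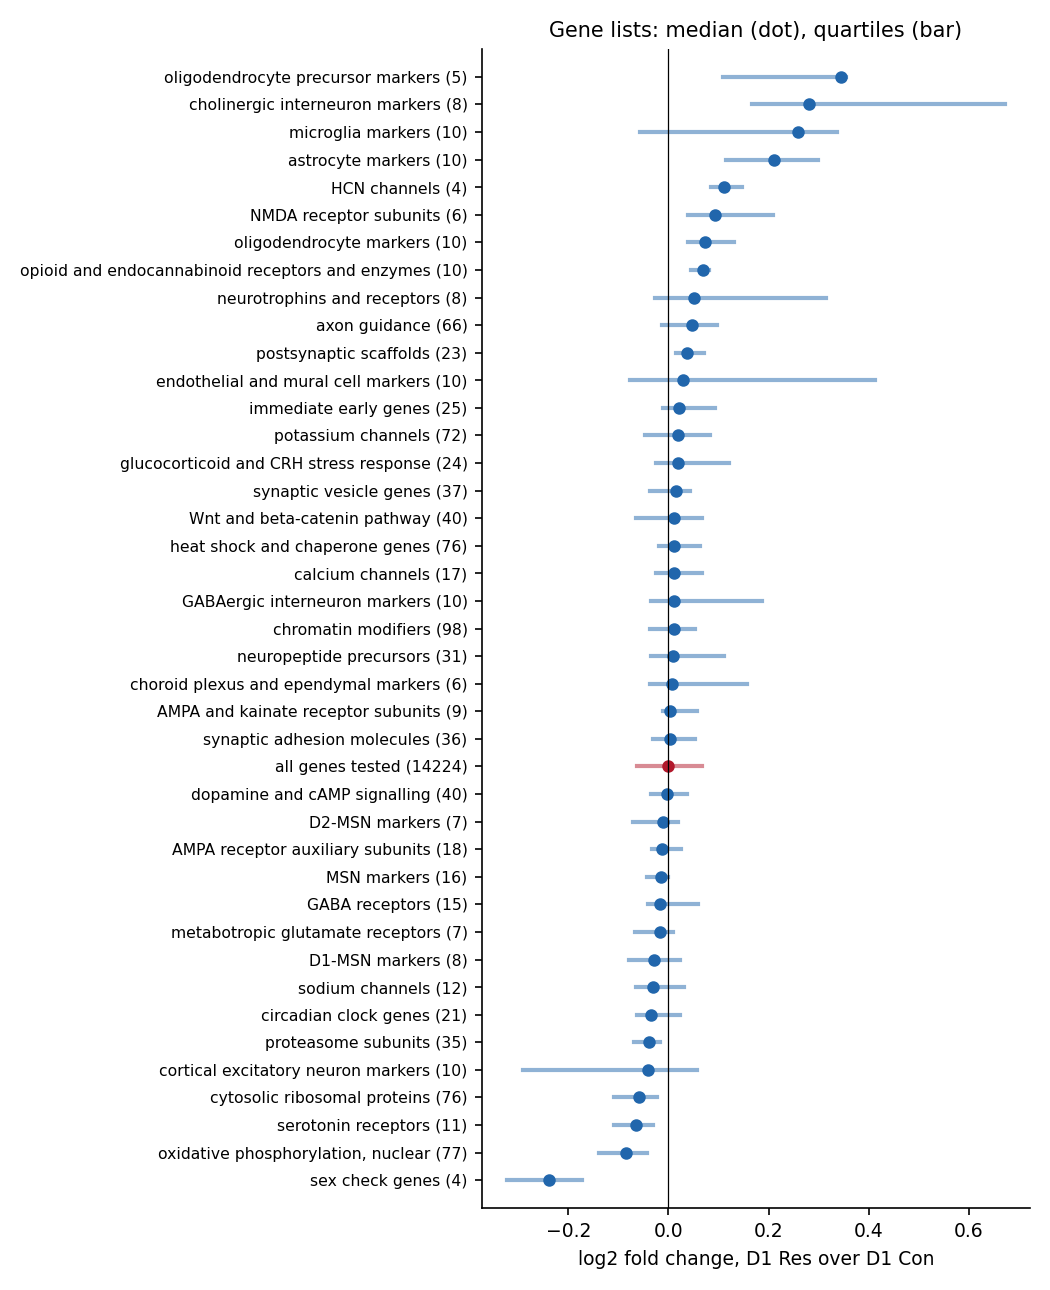
Each row is one of 40 gene lists, or all genes tested, with the number of genes tested in parentheses, the dot its median log2 fold change of D1 Res over D1 Con and the bar its quartiles, with all genes in red. Most medians lie within 0.1 of 0, oligodendrocyte precursor, cholinergic, microglia and astrocyte markers lie highest, and the check genes of sex, OXPHOS, serotonin receptors and ribosomal proteins lie lowest.

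The ribosomal proteins called were Rpl39 and Rpl36, both lower. Rpl39 held 15.6, 15.2, 15 and 17.1 CPM in D1 Con and 8.92, 9.29, 15.9 and 14.3 CPM in D1 Res (log2 fold change -0.37 ± 0.17), with D1 Res 1 and D1 Res 2 low and the other 2 D1 Res libraries close to or within the controls. Rpl36 held 38.4, 32, 32.2 and 38.5 CPM and 26.3, 28.2, 33 and 31.3 CPM (-0.25 ± 0.12), also with overlap. Ribosomal protein genes have many near-identical copies in the genome, so their counts are uncertain.

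Shisa6, an auxiliary subunit that keeps AMPA receptors from desensitizing and the gene the study followed up, did not pass the test between D1 Res and D1 Con. It held 12.5, 17.2, 16.2 and 9.91 CPM in D1 Con and 10.6, 14.1, 12.5 and 9.84 CPM in D1 Res. The D1 Res range lay inside the D1 Con range but for its lowest library. The log2 fold change was -0.25 ± 0.14 (SE, 95% interval -0.53 to 0.037) at adjusted p = 1.00 in edgeR. Leaving out single libraries gave -0.38 (without D1 Con 4, the lowest control) to -0.13 (without D1 Con 2). The estimates without D1 Con 4 and without D1 Res 2 (-0.34) were past the unadjusted threshold, and those without the other 6 libraries were not, among them -0.17 both without D1 Con 3 and without D1 Res 4. In D1 inputs the estimate was 0.31, past the unadjusted threshold in the other direction. D1 Sus was above D1 Res by 0.55, past the unadjusted threshold but at adjusted p = 0.999 in edgeR, and its estimate against the same D1 Con libraries was 0.30, with 15.7 to 20.5 CPM in D1 Sus. Its relative Shisa9 held 172, 152, 159 and 155 CPM in D1 Con and 136, 163, 159.9 and 164 CPM in D1 Res (log2 fold change -0.034 ± 0.07), and its 95% interval of -0.17 to 0.11 kept it within 1.5-fold.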

How the data were processed

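The counts used here came from 28 IP and 18 input libraries of the NAc. Per the labels and the paper's methods, the authors selected poly-A RNA, made stranded libraries, trimmed reads with cutadapt, used STAR for alignment to mm10 and HTSeq for counting; versions and the strand setting are not given in the sources used here. The deposited values are raw counts per gene symbol for 24552 genes. The 5 entries that name no gene took 18.5% to 20.8% of the reads of D1 Con and D1 Res and were left out. 2 columns (D1 Con 5, D1 Res 5) had no sample record and were not used. A second table, of Sirt1-KO libraries, was not used.

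From the counts, edgeR 4.0.16 (R 4.3.3; limma 3.58.1) gave TMM factors, CPM and quasi-likelihood tests over all 28 IPs with a mean for each of 6 groups, and over the 18 inputs in a model of their own; filterByExpr (minimum count 10, minimum total 15) kept 14224 and 15063 genes. A gene is called at an unadjusted p under 0.05, the threshold of the study, and adjusted p-values are Benjamini-Hochberg over all genes tested; after ± stands the SE of a log2 fold change. No pair of replicates was a duplicate (chi-square per gene of 8.19 or more). No source says that shared replicate numbers pair the libraries, so no block was used in the main tests. Named genes were any with an adjusted p under 0.05, the 12 per direction with the smallest p, no overlap and a mean of at least 1 CPM (uncertain gene models replaced), up to 4 called members per list, Shisa6, Shisa9 and 9 MSN markers; genes of copper handling, Ccdc87, Rn45s, Lars2, Kdm5d, Ddx3y and Uty were added after their values were seen. The members, lists and rules were chosen with earlier results of these data known. Alternatives were RLE factors, no filter, DESeq2 1.42.0, a minimum mean count of 50, fewer libraries, replicate blocks and leaving out libraries. Defeat lasted 10 min a day per the labels and 5 min in the paper's methods. Sequencing sets and defeat cohorts are not given per library, so a batch could not be tested. A gene list and 2 genes that these rules name are not reported here. The programs were tested on simulated data. Figures used Python 3.11.15 and matplotlib 3.10.9.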

Additional observations from a re-analysis of the deposited data

Results flagged for a closer look

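In groups of 4, 18 of 180 checks found a library far from the other 3 (Dixon's test). The checks covered named genes, list sums, depth and unassigned reads. Chance gives about 1 in 20 for a single check. The checks share libraries, and some named genes also lie in the list sums. They are thus not independent, and no excess over chance is read from their number. D1 Con 1 was high in several, with MSN markers at 15161 CPM (others 12028 to 12209), dopamine and cAMP genes at 20302 CPM (17414 to 17633), OXPHOS genes at 10743 CPM (10084 to 10171), Tac1 at 388 CPM (331 to 334), Gpr6 at 63.7 CPM (44.6 to 45.7) and Ppp1r1b at 2094 CPM (1493 to 1550). D1 Res 1 stood apart by Chat at 6.42 CPM (1.5 to 2.02), Slc18a3 at 2.80 CPM (0.352 to 0.763), cholinergic markers at 54.5 CPM (28.8 to 31.0), Shisa9 at 136 CPM (160 to 164) and clock genes at 1756 CPM (1882 to 1904). D1 Con 4 was high in Hnrnpa1 at 4.99 CPM (2.80 to 3.09), Slc18a3 at 0.713 CPM (0.293 to 0.341) and oligodendrocyte precursor markers at 34.6 CPM (20.5 to 22.6). D1 Con 2 was high in Cdk5rap3 at 25.4 CPM (22.4 to 22.9). D1 Res 3 was high in proteasome subunits at 3675 CPM (3370 to 3392), and D1 Res 4 was high in Zfp119a at 3.39 CPM (2.29 to 2.47) and low in heat shock and chaperone genes at 14332 CPM (15492 to 15640).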

How the results depend on the processing

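Ccs was lower at an unadjusted p under 0.05 in all 18 alternatives tried (log2 fold change -0.51 to -0.42), but passed an adjusted p under 0.05 in 4 of them (RLE factors, a mean of at least 50 counts, DESeq2 and without D1 Con 3), with adjusted p from 0.00101 to 1.00 over the alternatives. The number of genes past an adjusted p was 0 without a filter, with a replicate block, with the 8 or the 13 D1 IP libraries only, and with the 8 libraries and a block. It was 0 to 1 when single libraries were left out, 1 without D1 Con 3 alone, 0 without D1 Con 3 and D1 Res 3, and 0 without D1 Con 1 and D1 Res 1, both chosen after seeing the data. In the comparison of D1 Res with D1 Con, 300 genes at an unadjusted p became 478 (250 higher) without a filter, 452 (263 lower) with the replicate block, 466 (272 lower) without D1 Con 3 and D1 Res 3, and 1 at the adjusted threshold; 96 were lower at a mean of at least 50 counts. Without single libraries there were 203 (without D1 Res 1) to 488 (without D1 Res 3), 87 to 221 higher and 116 to 267 lower (the most without D1 Res 3), and 139 to 216 of the 300 genes were called again. The share higher among calls was 47.7%, against 37.5% in the 8 libraries with a block, 59.4% without D1 Con 4. Counts for D1 Sus against D1 Res moved by less than 1.5 times. The difference between D1 and D2 went from 335 calls to 520 (268 lower) without a filter, 590 (336 lower) with the block, and 274 to 514 (116 to 293 higher, 144 to 271 lower) without single libraries, 514 without D1 Con 1. Input calls went from 525 to 381 to 819 without single libraries (198 to 424 higher, 183 to 395 lower, 0 to 1 past an adjusted p), 819 without D1 Res input 2, and the block gave 1 past an adjusted p. The cause was not tested. Same-numbered libraries of D1 Con and D1 Res had correlations of deviations of -0.11, 0.12, 0.04 and 0.10 in order of number, not all above 0.1, and no source says that the numbers pair the libraries, so the block is given here only. D1 Con 3, D1 Res 3 and D1 Sus 3 each held the least Rn45s of their IP group (4301, 4918 and 7898 CPM). With the block, Ccs was at adjusted p = 0.216. Shisa6 was past the unadjusted threshold in the 8 libraries with the block (-0.23).

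Estimates near 0, and that of Chat, changed sign. When 1 library, or 1 of the pairs of libraries named above, was left out, the log2 fold change ran from -0.057 to 0.067 for Shisa9, -0.11 to 0.050 for Drd1, -0.042 to 0.086 for Pdyn, -0.10 to 0.038 for Chrm4, -0.063 to 0.15 for Drd2, -0.18 to 0.089 for Adora2a, -0.14 to 0.12 for Penk, -0.13 to 0.20 for Gpr6, -0.11 to 0.13 for Ppp1r1b and -0.024 to 0.94 for Chat. Pdyn was 0.0049 at a mean of at least 50 counts, 0.0054 with the replicate block and 0.00025 in the 13 D1 IP libraries, and Drd2 was -0.0025 without a filter and -0.0014 in the 8 libraries. Depth limits genes under 1 CPM, where 1 of 1793 intervals lay within 1.5-fold.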
